A study of Mus musculus with 12 samples.

Results

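The AP-1, ATF3 and EGR early-response factors are 10 genes, chosen by symbol out of the 55335 genes in the tables: 4 FOS-family genes (Fos, Fosb, Fosl1 and Fosl2), 3 JUN-family genes (Jun, Junb and Jund), Atf3, and the zinc-finger genes Egr1 and Egr2. All 10 were found in each library and all 10 passed the filter on low counts. Their mRNA levels were measured by RNA-seq in 12 libraries of dendritic cells grown from mouse bone marrow with GM-CSF for 6 days, with 3 biological replicates in each of 4 groups. WT cells came from C57BL/6 mice carrying only CreER, a tamoxifen-activated recombinase expressed from the Rosa26 locus. KO cells came from CreER;CTCF fl/fl mice, whose Ctcf gene is removed by recombination when 4-hydroxytamoxifen (4-OHT) is given, here at the start of the culture. WTLPS and KOLPS cells are the same 2 kinds of cell after 3 h with 100 ng/ml of the bacterial lipopolysaccharide LPS. CreER was thus shared by the 4 groups. By the study's account, 4-OHT was added to remove Ctcf in KO and not in WT cells. Its wording does not settle whether the WT cultures received 4-OHT as well. If they did not, an effect of 4-OHT, or of the recombinase it activates, cannot be told apart from loss of CTCF. The cells were selected for CD11c, which macrophages can also carry, and CreER acts in any cell of the culture. The comparisons ask how LPS changes these genes in each genotype, how the genotypes differ before and after LPS, and whether the LPS response itself differs between them.

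AP-1 is a dimer of basic leucine-zipper proteins, in which a FOS protein pairs with a JUN protein, or 2 JUN proteins pair with each other, and binds short DNA elements near target genes. ATF3 is a leucine-zipper protein of the ATF/CREB group that can pair with JUN proteins and is known for limiting cytokine genes in LPS-treated macrophages. EGR1 and EGR2 bind GC-rich DNA through zinc fingers. Most of these genes are immediate-early genes, which are switched on within minutes of a stimulus through MAP kinases and transcription factors already present in the cell, and whose mRNAs are short-lived. In dendritic cells and macrophages LPS is sensed by TLR4, which feeds into MAP kinases and NF-kB. A sample taken after 3 h therefore sees what remains, or is sustained, after the earliest wave of induction.

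Promoter windows running from 250 bases before to 50 bases after a start site were available for 8 members in RefSeq (GRCm38.p6). They are shown for the 3 FOS-family genes whose windows held a match to the NF-kB motif and for one Egr2 start site with a CArG box, the element bound by SRF. In WT cells LPS raised Fos, Fosb and Fosl2 and lowered Egr2. Junb, Jund and Atf3, whose windows held no NF-kB match, also rose in WT cells. Jun, likewise without a match, was not called. Whether the motifs go with the direction was not tested. Capitals mark the motif matches. The Fos window is chr12:85473640-85473939 (+ strand), that of Fosb chr7:19309996-19310295 (- strand), that of Fosl2 chr5:32136222-32136521 (+ strand) and that of Egr2 chr10:67537619-67537918 (+ strand).
Fos: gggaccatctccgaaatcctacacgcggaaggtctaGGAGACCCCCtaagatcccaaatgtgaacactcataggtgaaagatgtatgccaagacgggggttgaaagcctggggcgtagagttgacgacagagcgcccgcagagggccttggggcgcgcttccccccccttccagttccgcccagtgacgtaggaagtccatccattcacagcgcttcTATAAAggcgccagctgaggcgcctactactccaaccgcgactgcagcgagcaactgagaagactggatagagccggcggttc
Fosb: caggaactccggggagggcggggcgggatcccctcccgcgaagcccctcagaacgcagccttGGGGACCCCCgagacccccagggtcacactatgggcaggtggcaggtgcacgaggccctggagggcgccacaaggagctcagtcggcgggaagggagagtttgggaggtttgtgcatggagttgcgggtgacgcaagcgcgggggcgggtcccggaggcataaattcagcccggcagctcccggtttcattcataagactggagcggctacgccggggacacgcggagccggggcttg
Fosl2: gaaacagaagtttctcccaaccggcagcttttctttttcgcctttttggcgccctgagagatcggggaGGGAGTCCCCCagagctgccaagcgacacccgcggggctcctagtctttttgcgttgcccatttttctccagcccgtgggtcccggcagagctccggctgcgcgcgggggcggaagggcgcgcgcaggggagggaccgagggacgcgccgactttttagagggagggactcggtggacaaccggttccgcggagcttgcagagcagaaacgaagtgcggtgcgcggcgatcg
Egr2: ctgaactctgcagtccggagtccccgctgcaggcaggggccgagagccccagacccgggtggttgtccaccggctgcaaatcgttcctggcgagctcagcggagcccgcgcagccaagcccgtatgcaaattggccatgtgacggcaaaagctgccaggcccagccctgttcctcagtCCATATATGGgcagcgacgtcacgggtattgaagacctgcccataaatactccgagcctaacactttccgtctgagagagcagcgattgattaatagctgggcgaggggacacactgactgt
In Fos the capitals are an NF-kB match that starts 214 bases before the start site and a TATAAA 33 bases before it. In Fosb the NF-kB match starts 188 bases before the start site, and in Fosl2 a pair of overlapping NF-kB matches starts 182 and 181 bases before it. In Egr2 the CArG box starts 72 bases before the start site. A CArG box was present in 4 of the 5 Egr2 windows. Some of these windows overlap and hold the same element, so the 4 are not separate matches. Searched on both strands, the NF-kB motif was present in 4.51% of all 32851 windows, the CArG box in 1.63% and TATAAA in 13.6%. No window of the 8 members held the AP-1 element TGACTCA (5.20% of all windows), the CRE element TGACGTCA (1.79%) or the EGR element GCGTGGGCG (0.612%) in these letters. The Jund window (chr8:70697489-70697788) lies upstream of the GENCODE start of Jund. The Atf3 window (chr1:191183284-191183583) and the Fosl2 and Egr2 windows printed above lie at starts inside the GENCODE spans of these genes. None of these windows covers the 5′ end of its GENCODE gene.

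The genes are compact and lie apart from each other. By the GENCODE M21 annotation of mm10, Fos (ENSMUSG00000021250.13) spans chr12:85473890-85477273, Fosb chr7:19302696-19310051, Fosl1 chr19:5447547-5455946, Fosl2 chr5:32135801-32157842, Jun chr4:95049034-95052222, Junb chr8:84974484-84978718, Jund chr8:70698949-70700616, Atf3 chr1:191170296-191218039, Egr1 chr18:34859823-34864984 and Egr2 chr10:67535475-67542188. Of the 10, 8 span under 10 kb, against 31.8% of the genes tested. The first listed transcripts of Jun, Junb and Jund have 1 exon, those of Egr1 and Egr2 have 2, and those of the other members have 4. The pentamer ATTTA, a core of AU-rich elements that mark short-lived mRNAs, was denser in the 3′ untranslated region than the median of the genes tested (1.25 per kilobase) for 9 of the 10 members. Fos had 4.91 per kilobase, Junb 4.12 and Jun 3.24, while Fosb, at 0.434, was the member below the median. The spans of Jun and Jund overlap antisense genes and those of Fosl1 and Junb overlap protein-coding genes on the other strand, Ccdc85b and Prdx2. The strand setting of the counting is not given in the sources used here, so the values of these 4 genes may include reads of their neighbours.

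The libraries held between 12769773 and 16586334 expected counts assigned to genes. Ctcf, the targeted gene, had 975 to 1051 normalized counts in the WT libraries and 516 to 570 in the KO libraries, 54.7% of the WT mean. After LPS it had 745 to 886 in WTLPS and 526 to 563 in KOLPS, 66.2% of the WTLPS mean. LPS-treated replicates spread more than untreated ones, with a biological coefficient of variation of 13.1% in WTLPS and 13.5% in KOLPS against 4.64% in WT and 2.15% in KO. WTLPS replicate 2 had 5.17% of its counts on ribosomal RNA genes and the other libraries at most 1.18%. All 9 dendritic-cell markers exceeded 3 counts, and Hbb-bs, Hba-a1, Alas2 and Klf1 of erythroid cells did not. Of 8 mast cell and basophil markers, 6 exceeded 3 counts, Kit, Gata2 and Hdc among them. The mast-cell receptor genes Fcer1a and Ms4a2 did not.

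Before any treatment the members covered a wide range of levels. Levels are compared between genes in TPM, a measure of transcript abundance within a library that corrects for gene length. In WT cells Atf3 was highest, at 172 ± 3.83 TPM (SD, n = 3), followed by Junb at 101 ± 8.57, Egr2 at 60.4 ± 3.10 and Fos at 38.9 ± 2.25, with no overlap between neighbours in that order. Egr1 (22.9 TPM), Jund (20.9) and Fosl2 (19.6) came next, and the replicates of Egr1 overlapped those of Jund as those of Jund did those of Fosl2. Jun, at 17.1 TPM, Fosb, at 8.41, and Fosl1, at 1.70, closed the list without overlap. Atf3 and Junb also held the first 2 places in the other groups, although their replicates overlapped in KOLPS. The order below them differed: Egr2 came next in WT and KO, Egr1 in WTLPS with replicates overlapping those of Fos, and Fos in KOLPS at 73.5 ± 2.02 TPM.

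**Figure D1:**
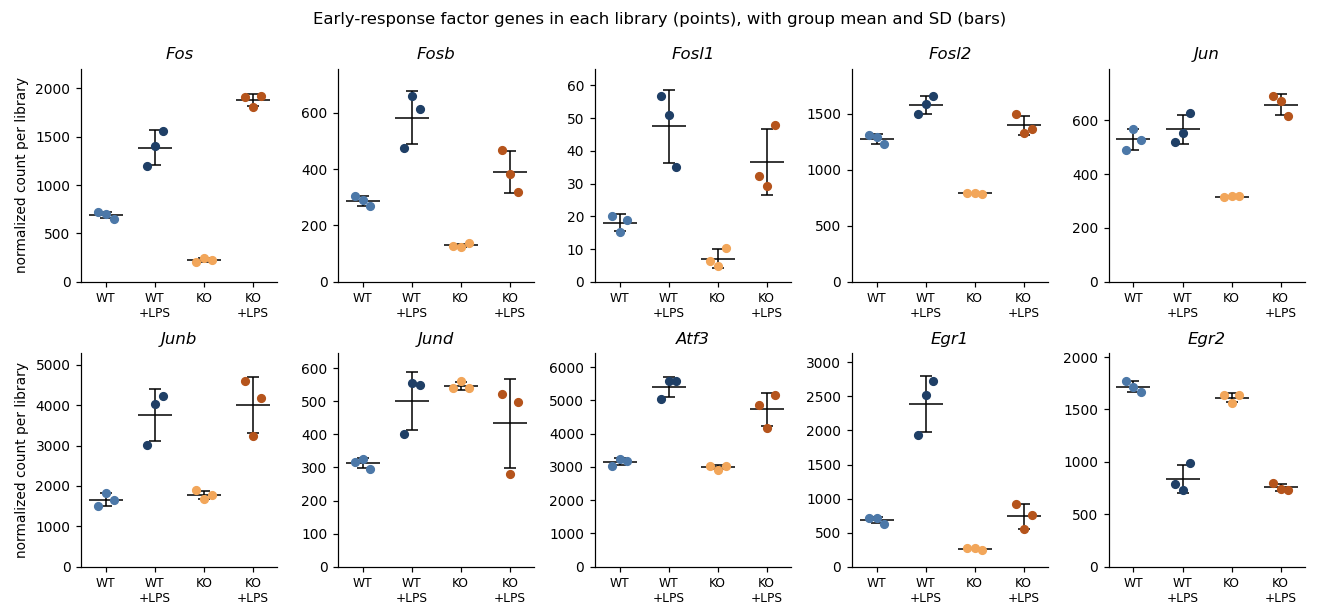
Normalized counts of the 10 members on linear axes that start at 0, one point per library, with bars for the mean and SD of the 3 libraries of WT, WTLPS (WT +LPS), KO and KOLPS (KO +LPS). Fos ranges from 204 normalized counts in a KO library to 1918 in a KOLPS library, and Egr2 is lower in both LPS-treated groups than in both untreated ones.

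In WT cells, LPS raised 8 of the 10 members, lowered Egr2 and left Jun without a call at an adjusted p under 0.05 (edgeR's quasi-likelihood test, Benjamini-Hochberg adjustment over 14008 genes). Of all genes tested, 30.0% were called higher and 30.2% lower in this comparison. The median log2 fold change was 0.89 over the members and -0.02 over all genes tested. Values compared between libraries are counts normalized by TMM, which assumes that most genes do not change. In bulk RNA, more RNA per cell and a larger share of cells with that RNA cannot be told apart.

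Fos, whose protein is the defining AP-1 partner of JUN, had 718, 700 and 654 normalized counts in the WT libraries and 1200, 1409 and 1557 in the WTLPS libraries. The WTLPS libraries lay above all WT libraries, a 2.01-fold rise (log2 fold change 1.01 ± 0.09 SE, adjusted p = 3.62e-07). Fosb, which also codes for the truncated splice form deltaFosB, had 304, 290 and 268 counts in WT and 476, 658 and 612 in WTLPS. It rose 2.03-fold (1.02 ± 0.13, adjusted p = 1.15e-05). Fosl1, which encodes FRA-1, was sparse, with 20.2, 15.1 and 19.0 counts in WT and 56.6, 50.9 and 35.1 in WTLPS, and rose 2.60-fold (1.38 ± 0.28, adjusted p = 0.000677). Fosl2, which encodes FRA-2, had 1313, 1287 and 1227 counts in WT and 1494, 1585 and 1653 in WTLPS. Its rise was the smallest of the 8, 1.24-fold (0.31 ± 0.07, adjusted p = 0.00145).

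Junb, a JUN protein that activates many sites less strongly than JUN, had 1514, 1830 and 1651 counts in WT and 3026, 4034 and 4238 in WTLPS. It rose 2.26-fold (1.18 ± 0.14, adjusted p = 3.75e-06). Jund, the JUN gene that many resting cells express, had 318, 327 and 296 counts in WT and 401, 556 and 549 in WTLPS, a 1.61-fold rise (0.68 ± 0.18, adjusted p = 0.00446). Jun itself had 491, 567 and 527 counts in WT and 519, 552 and 626 in WTLPS. Its groups overlapped, and the log2 fold change of 0.10 ± 0.08 was not called (adjusted p = 0.305).

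Atf3, the most abundant member, had 3038, 3254 and 3174 counts in WT and 5056, 5577 and 5577 in WTLPS, a 1.71-fold rise (0.78 ± 0.08, adjusted p = 1.05e-06). Egr1 showed the largest rise of the 10 in WT cells. It had 722, 708 and 630 counts in WT and 1931, 2516 and 2722 in WTLPS, 3.48-fold more (1.80 ± 0.16, adjusted p = 1.73e-07). Its relative Egr2 went the other way, from 1769, 1719 and 1665 counts in WT to 786, 731 and 987 in WTLPS. Egr2 thus fell 2.06-fold (-1.04 ± 0.09, adjusted p = 3.03e-07) with no overlap between groups, and the ratio of Egr1 to Egr2 in TPM went from between 0.359 and 0.390 to between 2.04 and 3.29.

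Markers moved with LPS too. The summed level of the dendritic-cell markers was 180056 to 241708 normalized counts in WTLPS and 193585 to 253455 in KOLPS, above the untreated libraries of either genotype. Of 9, 6 were called higher in WT and 7 in KO, where Itgax was called lower (-0.73). The macrophage and monocyte sum was lower with LPS, at 15437 to 19436 in WTLPS and 17241 to 23115 in KOLPS, but its markers were split, with 2 of 8 called higher and 3 lower in each genotype and a median log2 fold change of 0.03 in WT. Csf1r (-1.18 in WT, -2.04 in KO) and Ccr2 (-1.70 and -1.58) fell, while Fcgr1 rose (1.99 and 1.71). The neutrophil sum was 3426 to 4092 in WTLPS against 2888 to 3045 in WT, and 2699 to 3209 in KOLPS against 1793 to 1872 in KO. Of 8 markers, 5 were called higher in WT and 6 in KO, and Cxcr2 was called lower in both (-1.72 and -2.15). The mast cell and basophil sum was 664 to 718 in WTLPS against 174 to 200 in WT, and 761 to 841 in KOLPS against 142 to 161 in KO. Of its 3 tested markers, 1 was called higher and 1 lower in WT, and 3 were called higher in KO. The mean of Hdc went from 15.6 in WT to 555 in WTLPS and from 18.9 in KO to 523 in KOLPS. In WT cells Kit was called lower (-0.46) and Gata2 was not called. The heat-shock sum was higher with LPS, at 48344 to 51441 in WTLPS and 55299 to 57307 in KOLPS. Their part in the members' responses was not tested.

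The size of these LPS responses depended on the scaling between libraries. On log2(TPM + 1), with no further scaling, the median of all genes shifted by -0.44 in WTLPS against WT and by -0.38 in KOLPS against KO, and on that scale the directions of Fosl2 (-0.21, adjusted p = 0.0444 by limma) and Jun (-0.40, adjusted p = 0.00329) in WT cells flipped. On the same scale Jund (0.13, adjusted p = 0.590) and Fosl1 (0.34, adjusted p = 0.187) lost their calls in WT cells. After each library had been scaled to a common median TPM, 8 members were again called higher and 1 lower in WT cells, with Fosl2 at 0.31 and Jun at 0.11 without a call.

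In KO cells LPS likewise raised 8 members and lowered Egr2, but Jun was now among those that rose and Jund was the member without a call. Of all genes, 33.6% were called higher and 33.9% lower, and the median log2 fold change was 1.11 over the members against -0.02 over all genes. Fos had 204, 242 and 230 normalized counts in KO and 1916, 1807 and 1918 in KOLPS, a rise of 8.35-fold (log2 fold change 3.06 ± 0.10, adjusted p = 4.51e-12 by edgeR). Jun had 314, 317 and 319 counts in KO and 688, 672 and 614 in KOLPS, 2.08-fold more (1.06 ± 0.08, adjusted p = 6.29e-08). The tight KO replicates of Jun lay well below all KOLPS values.

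Fosb had 128, 123 and 136 counts in KO and 466, 383 and 319 in KOLPS (1.59 ± 0.15, adjusted p = 2.87e-07). Fosl1 had 6.28, 4.80 and 10.2 counts in KO and 32.3, 29.3 and 48.0 in KOLPS (2.35 ± 0.34, adjusted p = 2.51e-05). Fosl2 had 790, 789 and 785 counts in KO and 1494, 1328 and 1366 in KOLPS (0.83 ± 0.07, adjusted p = 1.15e-07). In each of these 3 genes the KO and KOLPS libraries did not overlap, nor did they in Jund, which was not called. What share of all genes lacked overlap between KO and KOLPS was not counted. Junb rose from 1893, 1685 and 1768 counts to 4595, 3249 and 4174 (1.17 ± 0.14, adjusted p = 3.29e-06), and Atf3 from 3039, 2914 and 3029 to 4864, 4170 and 5159 (0.66 ± 0.08, adjusted p = 4.63e-06). On log2(TPM + 1) the rise of Atf3 was 0.20 and was not called (adjusted p = 0.0699 by limma). Egr1 rose from 274, 273 and 252 counts to 918, 550 and 759 (1.48 ± 0.17, adjusted p = 2.15e-06), and Egr2 fell from 1634, 1562 and 1641 to 797, 744 and 730 (-1.09 ± 0.10, adjusted p = 1.57e-07).

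Jund had 539, 561 and 540 counts in KO and 523, 280 and 499 in KOLPS, so that KOLPS replicate 2 stood far below the other 2. The log2 fold change was -0.33 ± 0.18 and was not called (adjusted p = 0.110). It was -0.10 without KOLPS replicate 2 (adjusted p = 0.429), and without KOLPS replicate 1 it was -0.48 and was called lower (adjusted p = 0.0385). On log2(TPM + 1) it was -0.81 and was called lower (adjusted p = 0.00472 by limma). Replicate 2 was the lowest of the KOLPS libraries in Fos, Fosl1, Fosl2, Junb, Atf3 and Egr1 as well.

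**Figure D2:**
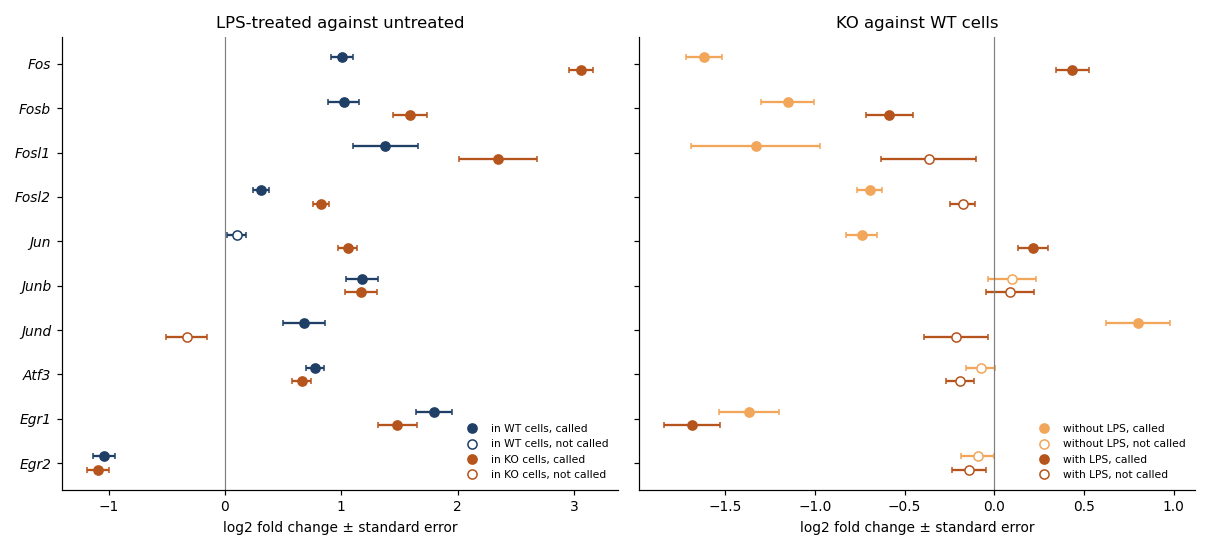
Log2 fold changes with standard errors for each member, filled where the adjusted p was under 0.05 and open where it was not, for LPS in each genotype (left) and for KO against WT without and with LPS (right). Fos has the widest gap between genotypes in its LPS response, 1.01 in WT and 3.06 in KO, and 6 members lie at -0.70 or lower in KO against WT without LPS.

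Without LPS, the KO cells had less mRNA of 6 of the 10 members: the 4 FOS-family genes, Jun and Egr1. Jund was the single member called higher, and Junb, Atf3 and Egr2 were not called. The background was 22.4% of all genes called lower and 22.2% called higher, and the median log2 fold change was -0.72 over the members and -0.01 over all genes. Fos fell most, to 3.07-fold below WT (-1.62 ± 0.10, adjusted p = 1.23e-08 by edgeR), from the 654 to 718 normalized counts of WT to the 204 to 242 of KO. Egr1 was 2.58-fold lower (-1.37 ± 0.16, adjusted p = 1.04e-05), Fosl1 2.52-fold (-1.33 ± 0.36, adjusted p = 0.00803) and Fosb 2.22-fold (-1.15 ± 0.15, adjusted p = 1.90e-05). Jun (-0.74 ± 0.08, adjusted p = 6.09e-06) and Fosl2 (-0.70 ± 0.07, adjusted p = 1.66e-06) fell by smaller steps. The KO and WT libraries did not overlap in these 6, nor in Egr2, which was not called. The share of all genes without overlap was not counted. Fosl1 was measured from few reads, 5.38 to 46.7 expected counts per library.

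Jund was 1.74-fold higher in KO (0.80 ± 0.18, adjusted p = 0.00202), with 539 to 561 normalized counts against 296 to 327. The 3 members without a call were the 3 most abundant ones by TPM. Their log2 fold changes were 0.10 ± 0.14 for Junb (adjusted p = 0.593), -0.08 ± 0.08 for Atf3 (adjusted p = 0.472) and -0.09 ± 0.09 for Egr2 (adjusted p = 0.453).

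Other cell markers differed between these groups as well. Of 8 tested neutrophil markers, 7 were lower in KO and 1 was higher, and their summed level was 1793 to 1872 normalized counts in KO against 2888 to 3045 in WT. The summed level of 8 macrophage and monocyte markers was 46668 to 48330 in KO and 28001 to 28804 in WT, with 4 of the 8 called higher and 3 lower. Csf1r (0.73), Ccr2 (1.3) and Ly6c2 (1.72) were higher in KO and Fcgr1 (-1.93), Mertk (-1.16) and Adgre1 (-0.81) lower. The summed level of 9 dendritic-cell markers was 105092 to 107354 in KO and 136493 to 143472 in WT, with 4 of the 9 called lower and 1 higher. Their part in the differences of the members was not tested. Heat-shock genes, which respond to handling, summed to 43852 to 44464 in KO and 42662 to 43060 in WT, with 3 of 11 called higher and 2 lower.

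After LPS, 2 of the 10 members were called higher in KOLPS than in WTLPS and 2 were called lower. Fos was 1.35-fold higher in KOLPS than in WTLPS, with 1807 to 1918 counts against 1200 to 1557 (0.44 ± 0.09, adjusted p = 0.00137 by edgeR). Jun was higher by 0.21 ± 0.08 on the log2 scale (adjusted p = 0.0475), but the groups overlapped, at 614 to 688 and 519 to 626 counts. The call for Jun was lost by DESeq2 (adjusted p = 0.0705) and without WTLPS replicate 1 (0.151), WTLPS replicate 2 (0.138), KOLPS replicate 1 (0.144) or KOLPS replicate 2 (0.0800). Egr1 was 3.22-fold lower in KOLPS (-1.69 ± 0.16, adjusted p = 7.80e-07), with 550 to 918 counts against 1931 to 2722, and Fosb 1.5-fold lower (-0.58 ± 0.13, adjusted p = 0.00227), with 319 to 466 against 476 to 658. In this comparison 21.4% of all genes were called higher and 23.3% lower, so the counts of members called were near the shares of all genes. The members' median log2 fold change was -0.18 against -0.03 over all genes. Of the neutrophil markers, 5 of 8 were lower in KOLPS and 3 were not called (median -0.98), of the macrophage and monocyte markers 2 were higher and 2 lower, with Fcgr1 at -2.20, and of the dendritic-cell markers 3 of 9 were higher and 4 lower. Gata2, on the mast cell and basophil list, was higher by 3.61. Their part in these differences was not tested.

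The other 6 were not called after LPS. Fosl2 (-0.18 ± 0.07, adjusted p = 0.0504) and Atf3 (-0.19 ± 0.08, adjusted p = 0.0636) lay close to the threshold. Fosl2 was called lower by DESeq2 (adjusted p = 0.0264) and without WTLPS replicate 1 (0.0245) or KOLPS replicate 1 (0.0276), and Atf3 by DESeq2 (0.0431) and without WTLPS replicate 1 (0.0290) or KOLPS replicate 3 (0.0230). Fosl1 differed by -0.37 ± 0.26, Jund by -0.21 ± 0.18, Egr2 by -0.14 ± 0.10 and Junb by 0.09 ± 0.13. The direction for Jund turned to 0.02 without KOLPS replicate 2, and that for Junb to -0.05 without WTLPS replicate 1 and to -0.02 without KOLPS replicate 1.

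The difference between the LPS responses of the 2 genotypes was tested directly as an interaction, the log2 fold change in KO minus that in WT. It was called for 4 members, 3 higher and 1 lower in KO, where 8.70% of all genes were called higher and 8.75% lower. For Fos the difference was 2.05 ± 0.14 (adjusted p = 6.05e-07 by edgeR), the sum of a lower level before LPS and a higher level after it. For Jun it was 0.95 ± 0.12 (adjusted p = 9.45e-05), and for Fosl2 0.52 ± 0.10 (adjusted p = 0.00241), where KO started lower and the levels after LPS differed little. For Jund it was -1.01 ± 0.25 (adjusted p = 0.0130), where Jund rose in WT from a lower start and was not called in KO. The Jund difference was -0.78 without KOLPS replicate 2 (adjusted p = 0.00166) and missed the threshold without WT replicate 3 (-0.90, adjusted p = 0.0519).

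For the remaining 6 the responses were not shown to differ. Fosb differed by 0.57 ± 0.20 (adjusted p = 0.0642), and was called without WTLPS replicate 2 (adjusted p = 0.0482) or KOLPS replicate 3 (adjusted p = 0.0232) and by DESeq2 (adjusted p = 0.0498). Fosl1 differed by 0.97 ± 0.45 (adjusted p = 0.163) and Egr1 by -0.32 ± 0.22 (adjusted p = 0.369). Egr1 thus kept a lower level in KO on both sides of the treatment, while its fold rise, 3.48 in WT and 2.79 in KO, was not separated by this test. Atf3 (-0.12 ± 0.11), Egr2 (-0.05 ± 0.13) and Junb (-0.01 ± 0.19) had differences smaller than or near their standard errors.

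Because AP-1 proteins compete for partners, the make-up of each family was followed within libraries, where the scaling between libraries cancels. Fos made up 55.2%, 58.6% and 56.3% of the FOS-family TPM in the WT libraries and 43.2%, 46.4% and 44.4% in KO. With LPS it made up 61.4%, 60.9% and 65.7% in WTLPS and 73.7%, 76.8% and 76.3% in KOLPS, so the 4 groups did not overlap. Fosl2 moved the opposite way, from 28.6% ± 0.569 (SD, n = 3) in WT and 41.2% ± 1.04 in KO to 20.4% ± 1.51 in WTLPS and 15.1% ± 0.981 in KOLPS.

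In the JUN family Junb dominated each library, with a mean share of 72.6% in WT, 69.8% in KO, 81.5% in WTLPS and 82.9% in KOLPS. The share of Jund was 23.6% ± 1.3 in KO against 15.1% ± 1.2 in WT, and that of Jun 6.63% ± 0.277 against 12.3% ± 0.199. The ratio of FOS-family to JUN-family TPM was 0.532, 0.469 and 0.488 in the WT libraries and 0.179, 0.199 and 0.193 in KO. After LPS it was 0.459, 0.418 and 0.412 in WTLPS and 0.426, 0.613 and 0.457 in KOLPS, where the 2 genotypes overlapped. With 3 libraries against 3 a 2-sided exact permutation test cannot reach 0.05, and none was run on these ratios.

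**Figure D3:**
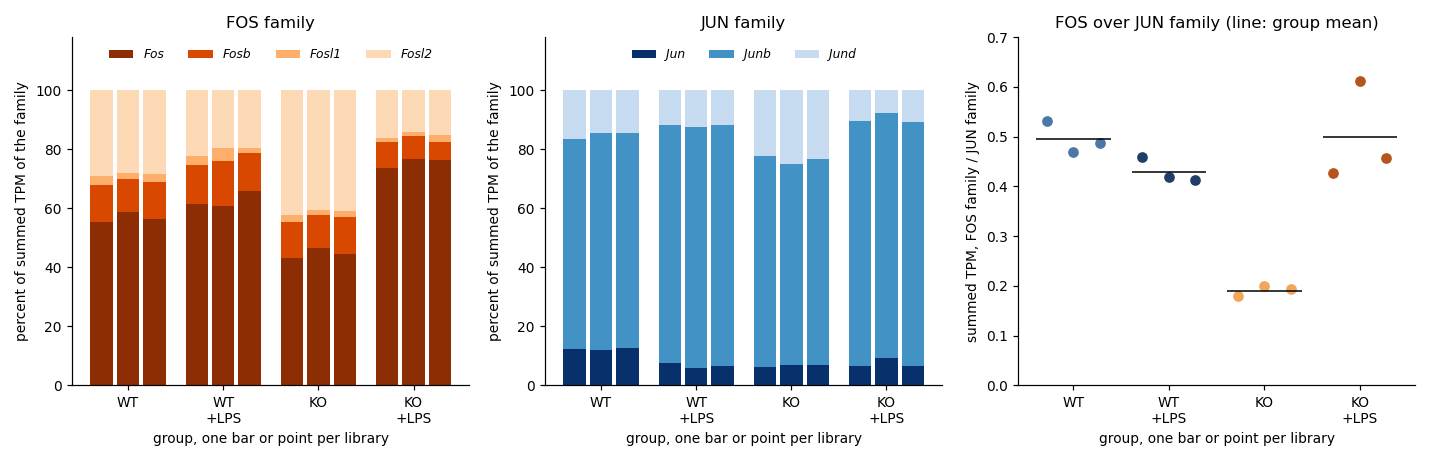
Percent of the summed TPM of the FOS family (left) and of the JUN family (middle) held by each gene, one bar per library, and the ratio of both sums per library with the group mean as a line (right). The KO libraries without LPS stand lowest in the ratio, at 0.179 to 0.199, and have the smallest share of Fos.

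Other immediate-early genes were examined next, from a list of 26 that includes the nuclear receptors Nr4a1 to Nr4a3, dual-specificity phosphatases and the IER genes, of which 24 passed the filter. Without LPS, 22.4% of all genes were lower in KO and 22.2% higher. Of the 24, 19 were lower, 2 were higher and 3 were not called, and the list's median log2 fold change was -0.67. The largest differences were those of the stress-response gene Gadd45b (-1.26, adjusted p = 3.41e-08 by edgeR), the antiproliferative gene Btg2 (-1.14, adjusted p = 5.69e-09), Klf10 (-1.01, adjusted p = 7.04e-08), a zinc-finger gene, and the MAP kinase phosphatase gene Dusp2 (-0.99, adjusted p = 0.00177). With LPS, 15 of the 24 rose and 6 fell in WT cells, and 18 rose and 5 fell in KO cells, led in WT by Dusp2 at 3.33 and Rhob at 2.49, and in KO by Dusp2 at 3.76 and Gadd45b at 2.72. Where the interaction was called higher for 8.70% of all genes, it was called for 12 of the 24, each with a positive difference. Most of these rose more or fell less in KO, whereas Arc was called lower in WT (-0.35) and higher in KO (0.60), and Klf2 was at -0.19 without a call in WT and rose in KO (0.89). After LPS, 7 were higher and 11 lower in KOLPS than in WTLPS, with Btg2 lower by -1.03.

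**Figure D4:**
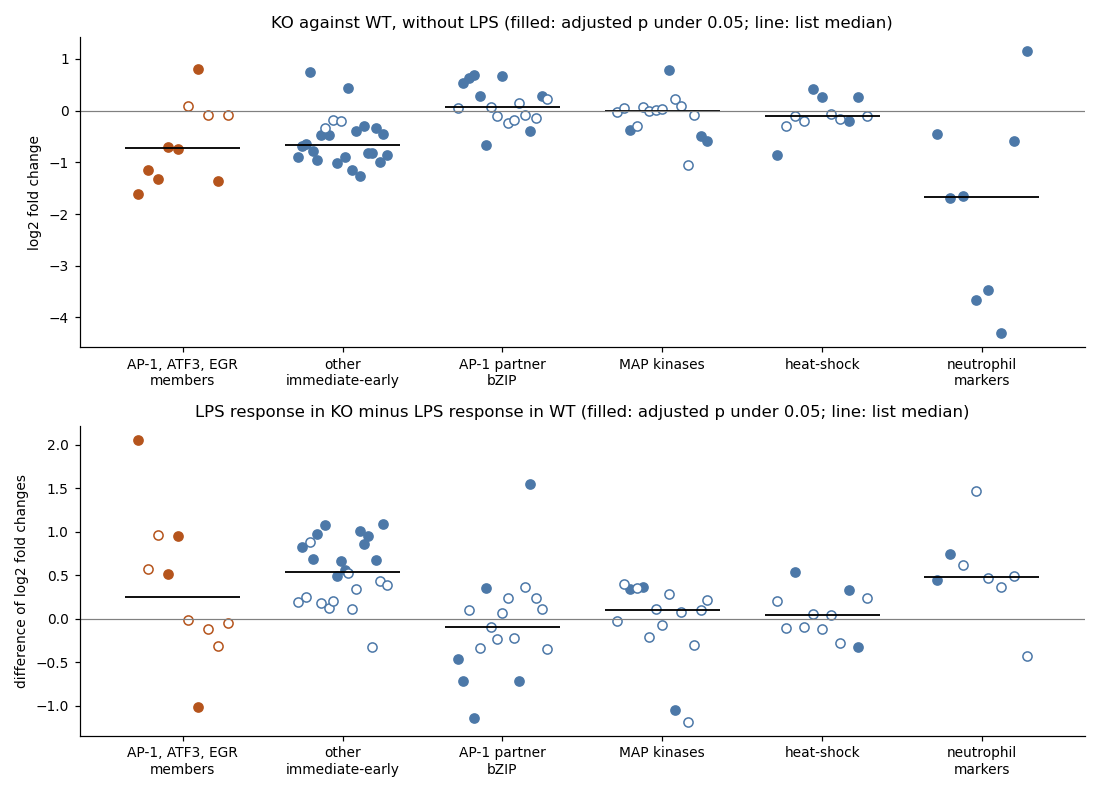
Log2 fold change of KO against WT without LPS (top) and the difference between the LPS responses of the genotypes (bottom) for each tested gene of 6 lists, filled where the adjusted p was under 0.05, with a line at the list median. The members and the other immediate-early genes have medians of -0.72 and -0.67 in the top panel. The neutrophil markers have a lower median, -1.66, while the AP-1 partner, MAP kinase and heat-shock lists have medians near 0.

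The leucine-zipper factors that pair or compete with AP-1 were the next list, with all 17 tested. LPS raised 9 and lowered 3 in WT cells, and also raised 9 and lowered 3 in KO cells. Over all genes tested, LPS raised 30.0% and lowered 30.2% in WT, and raised 33.6% and lowered 33.9% in KO. Jdp2, which encodes a JUN-dimerizing repressor, rose by 4.09 in WT and 4.16 in KO on the log2 scale, and Batf2, a BATF-family gene, by 3.71 and 2.99. Without LPS, 6 were higher and 2 lower in KO, against 22.2% and 22.4% of all genes. Among them were Jdp2 (0.67), Batf3 (0.64), which conventional dendritic cells of one kind require, and Maff (-0.67). Crem, a cAMP-responsive factor, differed most in its LPS response, with 352 ± 1.90 normalized counts (SD, n = 3) in WT, 505 ± 42.4 in WTLPS, 269 ± 19.7 in KO and 1132 ± 68.9 in KOLPS (interaction 1.55 ± 0.12, adjusted p = 1.60e-06 by edgeR).

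Of the EGR relatives and their NAB corepressors, 3 of 5 passed the filter. Egr3 fell with LPS in both genotypes, as Egr2 did, with 156 ± 14.8 normalized counts in WT, 38.3 ± 8.35 in WTLPS, 263 ± 25.9 in KO and 56.9 ± 5.41 in KOLPS. It was higher in KO than in WT (0.76 ± 0.12, adjusted p = 0.000169 by edgeR), a difference that Egr2 did not show. Nab2, a corepressor that binds EGR proteins, fell with LPS as well (-0.67 in WT, -0.31 in KO). Nab1 went the other way and rose with LPS (0.40 in WT, 0.59 in KO). Without LPS Nab1 was lower in KO than in WT (-0.43).

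Without LPS, 22.4% of all genes were called lower in KO and 22.2% higher. Of 15 tested MAP kinase genes, which act upstream of the members, 3 were lower and 1 higher, not more than these shares. The higher one was Mapk13 (0.79), a p38 gene, and the lower ones were Map3k5 (-0.59), a stress kinase gene, and Map3k8 (-0.49) and Map2k1 (-0.38), which code for kinases of the ERK branch. Map3k8 and Map2k1 rose with LPS, Map3k8 by 1.52 in WT and 1.62 in KO and Map2k1 by 1.44 and 1.79, and the list as a whole had 8 higher and 1 lower in WT, and 9 higher and 4 lower in KO. Mapk14, the gene of p38 alpha, fell by 1.11 in KO cells and had an interaction of -1.05 (adjusted p = 0.000132 by edgeR). Of 6 SRF, TCF and MRTF factor genes, 2 were called without LPS, Elk1 (0.81) and Mrtfa (0.39), both higher in KO. Elk1 fell with LPS in both genotypes (-0.50 in WT, -1.12 in KO).

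Each member had genes with a closely similar pattern over the 12 libraries, measured by Pearson's correlation of log2 normalized counts among 9338 genes with a mean of at least 100. The points share libraries and fall into 4 groups, so these values are a description. Closest to Fos were Stat4 (r = 0.995), Stk17b (0.990) and Il1r2 (0.989), and closest to Fosl2 were H2-Eb1 (0.995), C5ar1 (0.992) and H2-Aa (0.992). Egr1 was closest to Fam129b (0.990), Plcb3 (0.989) and Gsdmd (0.986), Egr2 to Cdan1 (0.989), Id3 (0.986) and Arrdc3 (0.986), and Junb to Csnk2b (0.994), Chmp4b (0.991) and Map2k3 (0.990). Atf3 was closest to Abracl (0.991), Tagln2 (0.991) and Pmpca (0.990), Jun to Tnfrsf9 (0.978), Ramp3 (0.976) and Dcaf11 (0.976), Fosb to Mthfd2 (0.987), Glipr2 (0.984) and Gm6548 (0.980), and Fosl1 to Tle4 (0.985), Clec4d (0.972) and Clmp (0.968). Jund had the weakest best match, Fastk (0.944), followed by Tlnrd1 (0.944) and Irf5 (0.940).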

How the data were processed

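Per the labels and the study's methods, reads were trimmed, aligned to mm10 with STAR (2.5.1 in the submitters' processing notes) and quantified with RSEM. The authors deposited, per library, RSEM expected counts and TPM per gene, with no further scaling. Library preparation is given as ribosomal RNA depletion in the labels and as a poly(A) kit in the methods. Expected counts were rounded and fitted in edgeR 4.0.16 (R 4.3.3): TMM scaling, filterByExpr, 1 quasi-likelihood fit over the 12 libraries, Benjamini-Hochberg adjustment over 14008 genes, threshold 0.05, no fold cutoff. Normalized counts are counts divided by effective library sizes, brought to a common total. Alternatives used DESeq2 1.42.0, limma 3.58.1 with TPM on a log2 scale, pseudocount 1 or 0.1, for genes of TPM 1 or more in 3 libraries, other scalings and filters, fold cutoffs (2 for LPS, 1.3 for KO against WT, 1.5 for KOLPS against WTLPS), a replicate block, and leaving out each library. A floor of 3 counts, which covers counting error only, marked genes as not detected. The scripts were tested on simulated data.

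The members and gene lists were chosen with earlier results of these data known. The text names the 10 members, Ctcf, the 3 genes most correlated with each member, and up to 4 genes per list and comparison with the largest called change; further values serve as markers or backgrounds. Lists of dendritic cell, macrophage, neutrophil, mast cell, eosinophil, T and NK cell, B cell, erythroid and heat-shock genes served as checks. For the lists without sums above, the summed levels over the 12 libraries are given in normalized counts. They were at most 533 for eosinophils, 53.3 for T and NK cells, 33.0 for B cells and 2.76 for erythroid cells. Promoter windows and motifs came from RefSeq (GRCm38.p6), and gene models from GENCODE M21, which matched the identifiers of all 10 members. No replicate pair had identical values, but the KO replicates spread least (biological coefficient of variation 2.15%). Whether replicates came from separate animals is not said in the sources used here, so the p-values may not cover variation between animals. Values of some genes on the lists are not reported here.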

Additional observations from a re-analysis of the deposited data

Results flagged for a closer look

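The LPS response of 4 members differed between genotypes by the interaction test (edgeR's quasi-likelihood test, adjusted over all genes). On the log2 scale the response in KO minus that in WT was 2.05 for Fos (adjusted p = 6.05e-07), 0.95 for Jun (adjusted p = 9.45e-05), 0.52 for Fosl2 (adjusted p = 0.00241) and -1.01 for Jund (adjusted p = 0.0130). For Fos, Jun and Fosl2 the difference was called in 20 of 20 alternatives, and for Jund in 16 of 20. Groups of 3 libraries are too small for a check of single outlying libraries. Jund had 280 normalized counts in KOLPS replicate 2 against 523 and 499 in the other two.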

How the results depend on the processing

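The comparisons of the members were recomputed under other tools, scalings, filters and library sets. In KO against WT the counts of 1 member higher and 6 lower moved by less than 1.5 times under the alternatives run. In WTLPS against WT the counts were 8 higher and 1 lower, and became 5 higher and 3 lower with limma on log2(TPM + 1) and on log2(TPM + 0.1), and 5 higher with a fold cutoff of 2. The lower count of KOLPS against KO went from 1 to 2 without the filter, with both TPM pseudocounts, and without KOLPS replicate 1 (range 1 to 2 over single left-out libraries). In KOLPS against WTLPS, 2 higher became 1 with DESeq2, in the 6 libraries of the comparison, without the filter and with both TPM pseudocounts, and 0 with a fold cutoff of 1.5. The 2 lower there became 4 with DESeq2 and 1 with that cutoff. Leaving out single libraries gave 1 to 2 higher and 2 to 4 lower. For the difference between LPS responses, the 1 lower became 0 on TPM with either pseudocount and on TPM scaled to a common median, an alternative added after seeing the data, and ranged from 0 to 1 over left-out libraries, with 0 without WT replicate 3.

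The labels number replicates 1 to 3 in each group without saying that a number marks a shared animal or day, and deviations of same-numbered libraries correlated between -0.29 and 0.11, so the numbers were not taken as pairs. With a replicate block the count of members higher in KOLPS against WTLPS was 1 and no other count of members moved by over 1.5 times.

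Single members reversed mostly where the change was near 0. On log2(TPM + 1) and log2(TPM + 0.1), Fosl2 was -0.21 and -0.22 and Jun -0.40 and -0.43 in WTLPS against WT, where the median of all genes was also lower (-0.44 and -0.51). For the difference between LPS responses, Junb was 0.0044 with DESeq2, 0.0059 with DESeq2 size factors, 0.0014 without the filter, and 0.062 on TPM, with a range of -0.14 to 0.13 over left-out libraries, and Egr2 was 0.024 and 0.020 on TPM, with a range of -0.14 to 0.091. Over left-out libraries Jun ranged from -0.028 to 0.16 in WTLPS against WT, Junb from -0.0035 to 0.14 in KO against WT and from -0.046 to 0.22 in KOLPS against WTLPS, and Jund there from -0.36 to 0.018. Of 795 recomputed log2 fold changes of members, 734 kept their direction and side of the threshold, 21 lost a call, 14 gained one and 26 changed sign. Fosl1 could not be tested with at least 10 counts in every library. The cause of these changes was not tested.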
